A study of Mus musculus with 14 samples.

Results

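The histone deacetylases HDAC1 and HDAC2 do not work as free enzymes but as the catalytic core of large corepressor complexes, and the genes described here encode the other subunits of those complexes. The set holds 38 genes, named as subunits of the Sin3, NuRD, CoREST, MIER, MiDAC, and NCoR complexes, of 55450 genes in the annotation. It was chosen by function and not by a rule on measured values, although earlier results of these data were known by then. Expression was measured by RNA-Seq in activated mouse CD4+ T cells lacking HDAC1, with or without a reduced dose of HDAC2, and the question asked of each experiment is whether the mRNAs of the partner subunits differ from those of WT cells.

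In all of these complexes the deacetylase removes acetyl groups from histone tails and the partner subunits decide where and how it acts. The Sin3 complex is built on the SIN3A or SIN3B scaffold, NuRD joins deacetylation to nucleosome remodelling by CHD3 or CHD4, and CoREST joins it to histone demethylation by KDM1A (LSD1). MIER proteins and the MiDAC protein DNTTIP1 bind HDAC1 and HDAC2 directly, RBBP4 and RBBP7 are histone chaperones shared by Sin3 and NuRD, and the NCoR complex is different in that its enzyme is HDAC3.

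In the first experiment 4 WT samples were set against 4 HDAC1cKO-HDAC2HET samples. The mutant cells came from C57BL/6 mice with floxed alleles and a CD4-cre transgene, which deletes in T cells from the thymic stage at which CD4 is first expressed, so that both *Hdac1* alleles and 1 *Hdac2* allele were lost. Naive CD4+ T cells from spleen, per the methods together with lymph nodes, were cultured for 3 days on anti-CD3 plus anti-CD28 antibodies in the presence of IL-2 and without polarizing cytokines (Th0). In the second, 3 WT samples were set against 3 HDAC1cKO samples, which lack both *Hdac1* alleles and keep both *Hdac2* alleles, and the cells were restimulated with anti-CD3 for 12 hours after the 3 days of culture. Per the study's methods the mice were 6 to 12 weeks old and of both sexes. Values are FPKM, that is, fragments scaled to transcript length and to the mapped total of the sample, so levels of different genes can be compared. Depth, estimated from the confidence bounds of low values, was 24400000 to 57300000 fragments per sample.

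*Hdac1* was examined first. In the first experiment it fell from 78.1 ± 1.44 to 8.30 ± 1.89 FPKM (mean ± SD over 4 samples per group, as below), and in the second from 75.6 ± 4.78 to 10.1 ± 1.82 FPKM (3 samples per group). *Hdac2* went from 59.0 ± 1.04 to 35.4 ± 1.36 FPKM in the first experiment. In the second it was 72.4 ± 8.65 FPKM in WT and 80.4 ± 6.91 FPKM in HDAC1cKO cells (limma adjusted p = 0.581). The summed FPKM of both enzymes was thus 0.319 of the WT sum in HDAC1cKO-HDAC2HET and 0.612 in HDAC1cKO cells. *Hdac3*, the enzyme of NCoR, was 47.4 ± 0.815 FPKM in WT and 51.0 ± 1.73 FPKM in HDAC1cKO-HDAC2HET cells (log2 fold change 0.11, limma adjusted p = 0.0192).

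All 38 subunit genes were expressed in WT cells of the first experiment, over a wide range of levels. The histone chaperone gene *Rbbp7* was the most abundant, with 239.8 FPKM, followed by *Chd4* with 118, *Mta2* with 98.2, *Mbd2* with 96.7, and *Mbd3* with 93.0 FPKM. NuRD subunits and the chaperones therefore held the top of the order. Within NuRD the scarcest gene was *Gatad2b* with 19.3 FPKM and within NCoR *Tbl1xr1* with 9.94 FPKM. The scarcest members of the whole set were *Rcor2* with 0.446 FPKM, *Rcor3* with 3.15, *Mier3* with 5.13, and *Brms1l* with 6.24 FPKM. Within Sin3 the most abundant member was *Sap18*, encoding a small Sin3-associated protein, with 82.6 ± 3.00 FPKM, and *Sin3b* at 81.7 ± 2.24 FPKM did not differ from it beyond the spread. *Kdm1a* was the most abundant CoREST gene with 47.9 FPKM, *Mier1* the most abundant MIER gene with 24.1 FPKM, and *Tbl1x* the most abundant NCoR gene with 42.5 FPKM. In every group the mean of every member was above the filter of 0.1 FPKM. The members therefore passed it in WT cells as well as in mutant cells.

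With the lower HDAC1 and HDAC2 dose of the first experiment, subunit mRNAs moved in both directions. Some paralogs, such as *Chd3* and *Chd4* or *Brms1* and *Brms1l*, were called in opposite directions. At a limma adjusted p of at most 0.05, 13 of the 38 members (34.2%) were higher and 11 (28.9%) were lower in HDAC1cKO-HDAC2HET than in WT cells, and 14 were not called. Of all 15111 genes tested, 24.2% were higher and 27.6% were lower. The median absolute log2 fold change was 0.24 over the members and 0.35 over all genes tested, and the median log2 fold change was 0.03 and -0.05, respectively. Of the 38 members, 1 was called at least 2-fold higher (*Rcor2*) and 2 at least 2-fold lower (*Chd3* and *Tbl1xr1*), against 5.6% and 5.56% of all genes. The groups did not overlap for 13 members that were higher and 11 that were lower, against 23.4% and 26.9% of all genes. The samples of this experiment were independent cell batches prepared on the same day, per the study, and p-values measure the spread between such batches. For the second experiment the labels number the samples of each group without naming their animals.

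Some measures moved with the genotype beside the members. *Xist* was at 58.9 to 65.2 FPKM in WT and 26.0 to 33.7 FPKM in HDAC1cKO-HDAC2HET samples, so that sex composition, *Xist* regulation, and genotype cannot be told apart, and with the *Xist* level as a covariate 0 members were called in either direction. The log2 fold changes in that fit were as large as without it, or larger, for *Rcor2* (3.69), *Chd3* (-1.46), *Tbl1xr1* (-1.05), and *Chd4* (0.76), and smaller for *Gatad2a* (0.65), *Brms1* (0.24), and *Phf21a* (-0.03). The 6 CD4+ T cell marker genes were all called lower, and their sum was 2119 to 2348 FPKM in WT and 1710 to 1921 FPKM in HDAC1cKO-HDAC2HET samples. The sum of *Cd8a* and *Cd8b1* was 3.28 to 5.96 FPKM against 11.7 to 15.2 FPKM, and that of 5 B cell markers was 0.502 to 0.945 against 2.79 to 4.40 FPKM. Of these 5 B cell markers 2 could be tested, and only 1 was called higher. The 6 myeloid markers summed to 0.413 FPKM or less in every sample of this experiment, and natural killer and erythroid markers were at or near 0. Of 15 proliferation genes, which include replication and mitosis genes such as *Mcm2* and *Ccnb1*, 4 were called higher and 3 lower. The part of these measures in the results was not tested. In bulk samples, fewer cells of a type and less RNA per cell cannot be told apart.

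**Figure D1:**
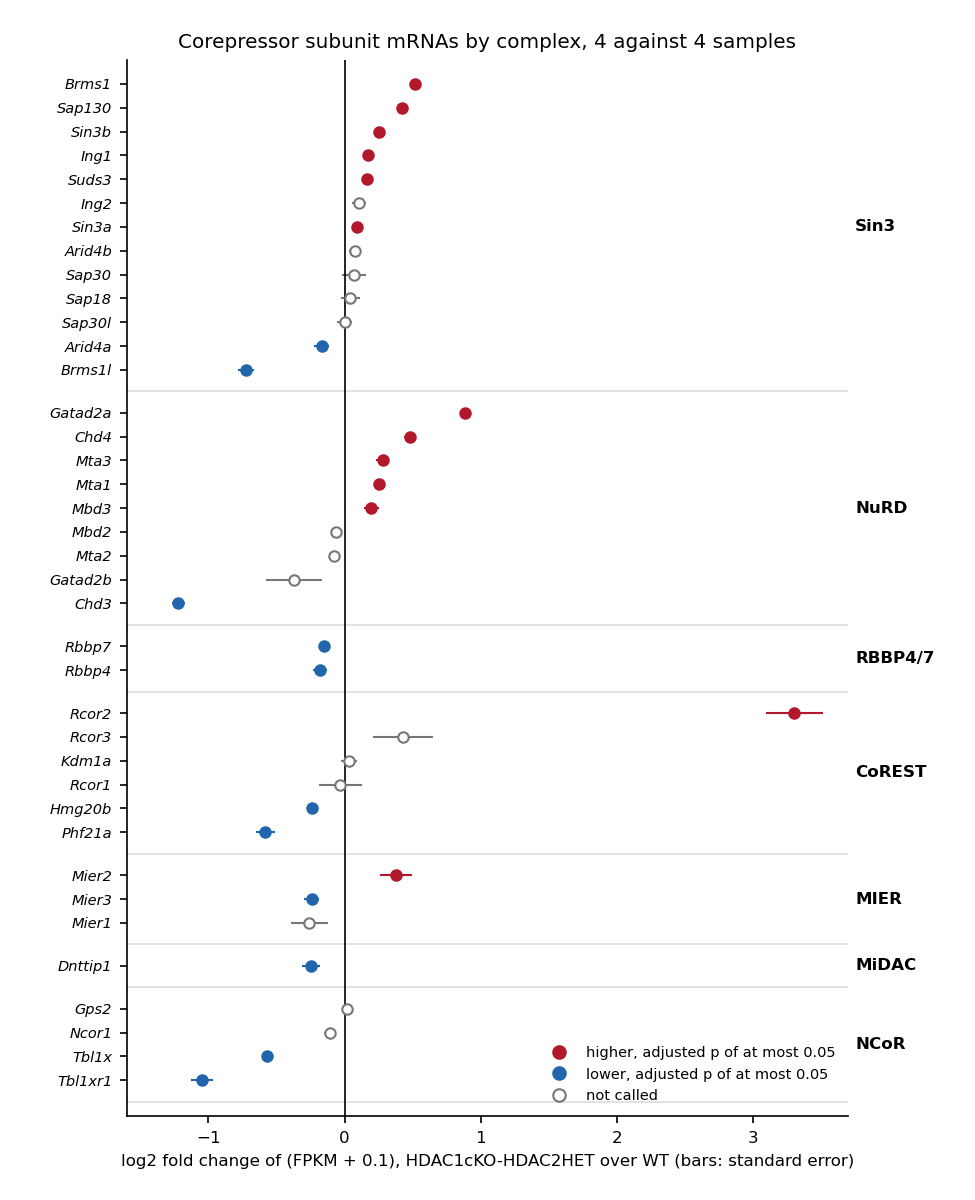
Log2 fold change of (FPKM + 0.1) in HDAC1cKO-HDAC2HET over WT cells for each of the 38 subunit genes, grouped by complex; bars are standard errors and filled points passed an adjusted p of at most 0.05. *Rcor2* stands at 3.30, *Gatad2a* at 0.88, *Tbl1xr1* at -1.05, and *Chd3* at -1.22. All other members lie nearer to 0 than these, the farthest of them being *Brms1l* at -0.72.

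The largest change in the set was a gain of *Rcor2*, a paralog of the CoREST scaffold that tethers HDAC1 and HDAC2 to KDM1A. In the 4 WT samples it had 0.658, 0.306, 0.499, and 0.322 FPKM, and in the 4 HDAC1cKO-HDAC2HET samples 4.59, 4.96, 5.48, and 5.48 FPKM. The groups were far apart, and an exact permutation test (2-sided) gave p = 0.0286, which is the lowest value possible for groups of 4. The means differed by a ratio of 11.5, a log2 fold change of 3.30 (SE 0.21, limma adjusted p = 1.07e-05). *Rcor2* lies on chromosome 19 from 7267325 to 7275225 of GRCm38 on the plus strand. At these low levels the pseudocount matters for the size of the change, with 2.09 at a pseudocount of 1 and 3.56 at 0.01. It thus went from the scarcest of the 38 mRNAs to a level, 5.13 ± 0.433 FPKM, that did not differ beyond the spread from that of *Rcor3* in the same cells, with 4.36 ± 1.34 FPKM (SD, n = 4).

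Of the other CoREST genes 2 fell and 3 were not called. *Rcor1*, the CoREST scaffold that WT cells express most, had 24.8 ± 4.30 FPKM in WT and 24.4 ± 4.93 FPKM in HDAC1cKO-HDAC2HET cells (adjusted p = 0.896), and *Kdm1a*, the demethylase, had 47.9 ± 1.60 and 49.1 ± 4.23 FPKM (adjusted p = 0.679). *Rcor3* gave a log2 fold change of 0.43 (SE 0.22) and was not called (adjusted p = 0.14). *Phf21a*, the subunit that reads unmethylated lysine 4 of histone H3, fell in every HDAC1cKO-HDAC2HET sample. It had 11.5, 11.6, 12.6, and 10.4 FPKM in WT and 8.28, 7.20, 7.81, and 7.36 FPKM in HDAC1cKO-HDAC2HET samples (log2 fold change -0.58, SE 0.07, limma adjusted p = 0.000238). *Hmg20b*, an HMG-box subunit, was lower as well, with 23.7 ± 0.720 and 20.1 ± 0.658 FPKM (limma adjusted p = 0.000854). CoREST thus counted 1 gene higher and 2 lower of 6, and its summed FPKM was 111 ± 4.81 in WT and 111 ± 5.13 in HDAC1cKO-HDAC2HET samples.

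In NuRD, 5 of 9 genes rose and 1 fell, and the paralogs *Chd3* and *Chd4* moved in opposite directions. *Chd3*, 1 of the ATP-dependent remodelling subunits, had 34.1, 38.1, 35.3, and 37.95 FPKM in WT and 15.5, 15.4, 15.0, and 16.3 FPKM in HDAC1cKO-HDAC2HET samples. The groups were far apart, with a ratio of 0.427 (log2 fold change -1.22, SE 0.05, limma adjusted p = 1.66e-06). Its paralog *Chd4* went the other way, from 123, 116, 118, and 115 FPKM in WT to 161, 159, 178, and 160 FPKM in HDAC1cKO-HDAC2HET samples (log2 fold change 0.48, SE 0.04, limma adjusted p = 6.48e-05). *Chd3* therefore made up a smaller part of the remodeller mRNA, with a *Chd3* to *Chd4* ratio of 0.278 to 0.330 in WT and 0.0842 to 0.102 in HDAC1cKO-HDAC2HET samples.

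*Gatad2a*, which encodes a p66 subunit that links the remodeller to the deacetylase module, showed the next largest rise in the set after *Rcor2*. It had 33.0, 31.8, 33.6, and 32.8 FPKM in WT and 57.9, 60.3, 59.7, and 64.2 FPKM in HDAC1cKO-HDAC2HET samples, a ratio of 1.85 (log2 fold change 0.88, SE 0.04, limma adjusted p = 2.1e-06). Its paralog *Gatad2b* varied within both groups. It had 16.2, 23.2, 15.2, and 22.7 FPKM in WT and 12.96, 17.5, 18.04, and 11.3 FPKM in HDAC1cKO-HDAC2HET samples, so the groups overlapped and the difference was not called (adjusted p = 0.17). The MTA scaffold genes differed among themselves, since *Mta1* (log2 fold change 0.25, limma adjusted p = 0.000578) and *Mta3* (0.28, limma adjusted p = 0.00152) rose while *Mta2*, the most abundant of them, had 98.2 ± 4.71 and 92.9 ± 2.64 FPKM and was not called. *Mbd3* rose (0.20, limma adjusted p = 0.0183) but lost the call without HDAC1cKO-HDAC2HET replicate 2 (adjusted p = 0.0507), and the methyl-CpG binding paralog *Mbd2* was not called (-0.06, adjusted p = 0.176). The summed FPKM of the 9 NuRD genes was 591 ± 8.28 in WT and 664 ± 12.5 in HDAC1cKO-HDAC2HET samples, a ratio of 1.12.

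The chaperone genes that Sin3 and NuRD share both fell slightly. *Rbbp7* went from 239.8 ± 6.39 to 216 ± 8.08 FPKM (log2 fold change -0.15, limma adjusted p = 0.00821) and *Rbbp4* from 77.3 ± 3.15 to 68.3 ± 4.60 FPKM (-0.18, limma adjusted p = 0.0236). The *Rbbp4* call was lost without WT replicate 2, WT replicate 4, or HDAC1cKO-HDAC2HET replicate 4 (adjusted p from 0.0605 to 0.0627). The X-linked *Rbbp7* shares part of its locus with *Txlng*, and the value of such a gene is uncertain to that extent.

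Of the 13 Sin3 genes 6 rose, 2 fell, and 5 were not called. Both scaffolds rose, *Sin3b* more than *Sin3a*. *Sin3b* had 82.99, 81.2, 83.9, and 78.8 FPKM in WT and 93.0, 101, 98.1, and 98.1 FPKM in HDAC1cKO-HDAC2HET samples, with no overlap (log2 fold change 0.25, SE 0.03, limma adjusted p = 0.000399). *Sin3a* went from 28.3 ± 0.381 to 30.2 ± 0.967 FPKM (0.09, limma adjusted p = 0.0308), and this small change lost the call without WT replicate 1, 2, or 4 or without HDAC1cKO-HDAC2HET replicate 1 or 4 (adjusted p from 0.0526 to 0.0755). *Sap130* encodes a Sin3-associated protein and rose in every sample. It had 18.5, 17.5, 18.7, and 17.5 FPKM in WT and 24.4, 24.3, 23.5, and 24.6 FPKM in HDAC1cKO-HDAC2HET samples (log2 fold change 0.42, SE 0.03, limma adjusted p = 3.37e-05). *Suds3*, which links SIN3A to the deacetylases (0.17, limma adjusted p = 0.00204), and *Ing1*, whose PHD finger binds trimethylated lysine 4 of histone H3 (0.17, limma adjusted p = 0.00751), rose by less.

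The paralogs *Brms1* and *Brms1l*, which encode related Sin3 subunits, moved in opposite directions. *Brms1* had 30.3, 31.3, 30.8, and 30.9 FPKM in WT and 41.2, 44.7, 45.01, and 46.0 FPKM in HDAC1cKO-HDAC2HET samples (log2 fold change 0.52, SE 0.04, limma adjusted p = 1.95e-05). *Brms1l* had 5.74, 6.56, 6.19, and 6.46 FPKM in WT and 3.79, 3.51, 3.81, and 3.85 FPKM in HDAC1cKO-HDAC2HET samples (log2 fold change -0.72, SE 0.06, limma adjusted p = 3.53e-05). Neither pair of groups overlapped. *Brms1* lies in a region with an annotated readthrough transcript, whose reads cannot be separated from its own. *Arid4a*, encoding a DNA-binding Sin3 subunit, fell by 0.17 (limma adjusted p = 0.0292), with groups that overlapped and a call that 6 of the 8 samples decided, since it was lost without any 1 of WT replicates 2, 3, and 4 or HDAC1cKO-HDAC2HET replicates 2, 3, and 4. *Ing2*, *Arid4b*, *Sap18*, *Sap30*, and *Sap30l* were not called, with log2 fold changes between 0.00 and 0.11. The summed FPKM of the 13 genes was 406 ± 6.77 in WT and 455 ± 9.70 in HDAC1cKO-HDAC2HET samples.

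The NCoR genes were the only group of more than 2 genes with no member called higher. *Tbl1x* and *Tbl1xr1* encode paralogous WD40 proteins that hold NCoR on chromatin and take part in exchanging it for coactivators. *Tbl1xr1* had 10.1, 9.26, 9.45, and 10.9 FPKM in WT and 4.53, 4.27, 5.06, and 5.18 FPKM in HDAC1cKO-HDAC2HET samples, a ratio of 0.479 (log2 fold change -1.05, SE 0.08, limma adjusted p = 2.83e-05). *Tbl1x*, an X-linked gene, had 42.0, 44.4, 41.0, and 42.6 FPKM in WT and 29.0, 28.3, 28.03, and 28.8 FPKM in HDAC1cKO-HDAC2HET samples (log2 fold change -0.57, SE 0.03, limma adjusted p = 5.47e-06). Both fell in all 4 samples. The scaffold *Ncor1* had 36.1 ± 0.616 and 33.5 ± 1.74 FPKM and narrowly missed the threshold (-0.11, adjusted p = 0.0506), although its groups did not overlap, and it was called in 6 alternatives, 2 of which left out a HDAC1cKO-HDAC2HET sample. *Gps2*, a small subunit that bridges NCoR and TBL1X, had 30.4 ± 1.01 and 30.7 ± 0.757 FPKM (adjusted p = 0.692). The sum of the 4 genes was 119 ± 1.86 FPKM in WT and 97.5 ± 1.90 FPKM in HDAC1cKO-HDAC2HET samples, a ratio of 0.82.

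MIER genes split 3 ways. *Mier2* rose (log2 fold change 0.38, limma adjusted p = 0.0287), with 10.8 to 12.2 FPKM in WT and 12.5 to 18.8 FPKM in HDAC1cKO-HDAC2HET samples, but lost the call without WT replicate 1, 2, or 4 or HDAC1cKO-HDAC2HET replicate 3 (adjusted p from 0.0538 to 0.0684). *Mier3* fell (-0.24, limma adjusted p = 0.00681). *Mier1* had 23.9, 24.2, 24.1, and 24.4 FPKM in WT and 19.1, 16.9, 27.3, and 18.6 FPKM in HDAC1cKO-HDAC2HET samples, so that 3 of the 4 lay below all WT samples and replicate 3 above them. It was not called (-0.26, adjusted p = 0.151), and without that replicate it was (-0.41, limma adjusted p = 0.000488). *Dnttip1*, the MiDAC subunit that binds the deacetylase dimer, fell from 26.1 ± 2.51 to 21.9 ± 0.304 FPKM (-0.25, limma adjusted p = 0.0136).

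**Figure D2:**
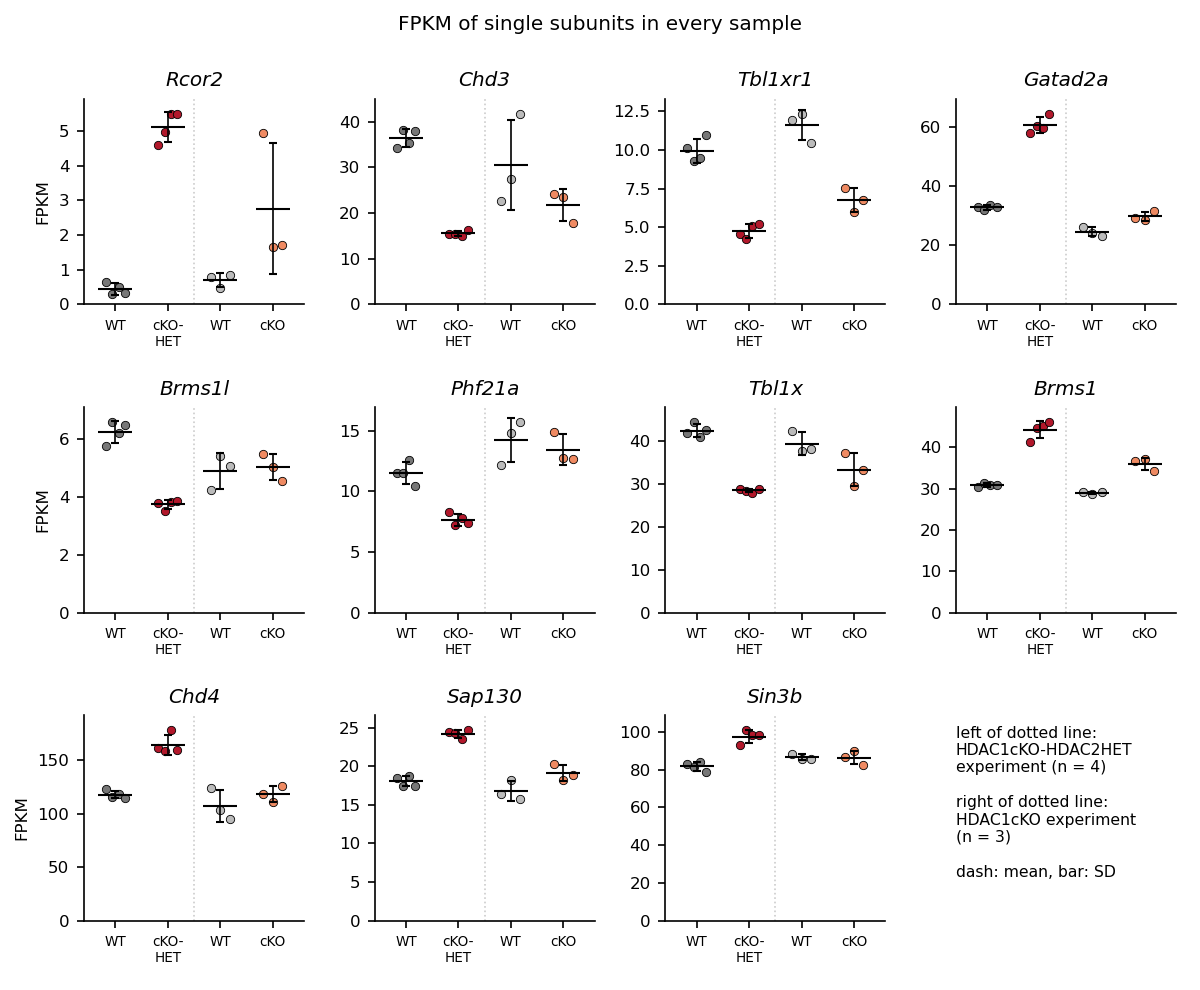
FPKM in every sample for the 11 subunit genes called with a log2 fold change beyond 0.4 in either direction in HDAC1cKO-HDAC2HET cells, or with a difference between the experiments that passed the test, with WT and HDAC1cKO-HDAC2HET samples left and WT and HDAC1cKO samples right of the dotted line; dashes are means and bars are SD, and each axis starts at 0. The 4 HDAC1cKO-HDAC2HET samples stand clear of the 4 WT samples in every panel, while in the HDAC1cKO experiment the groups overlap for *Chd3*, *Chd4*, *Brms1l*, *Phf21a*, and *Sin3b*.

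The DNA just upstream of 4 of these genes is shown because they had the largest absolute changes among the 32 members with an entry in the RefSeq promoter table for GRCm38.p6. No entry was used for *Sap130*, *Brms1*, *Arid4a*, *Mta3*, *Chd3*, or *Mbd2*. Each stretch starts 250 bases before the first listed start of the gene and stops before the first annotated exon. Capitals mark the GC box GGGCGG or CCGCCC, and the CCAAT box CCAAT or ATTGG. The E-box CACGTG was searched too. The stretches are *Rcor2* (chr19:7267144-7267324, plus strand), *Gatad2a* (chr8:69996385-69996634, minus strand), *Brms1l* (chr12:55836116-55836323, plus strand), and *Tbl1xr1* (chr3:22076402-22076651, plus strand).
Rcor2: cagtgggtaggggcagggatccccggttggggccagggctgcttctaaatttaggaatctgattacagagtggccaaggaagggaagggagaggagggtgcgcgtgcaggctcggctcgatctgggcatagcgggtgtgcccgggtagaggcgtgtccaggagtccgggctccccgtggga
Gatad2a: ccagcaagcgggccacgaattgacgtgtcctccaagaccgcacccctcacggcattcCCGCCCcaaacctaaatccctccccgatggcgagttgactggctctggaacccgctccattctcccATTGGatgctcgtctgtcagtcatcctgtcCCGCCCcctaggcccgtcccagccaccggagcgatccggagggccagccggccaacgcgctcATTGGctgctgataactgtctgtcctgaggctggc
Brms1l: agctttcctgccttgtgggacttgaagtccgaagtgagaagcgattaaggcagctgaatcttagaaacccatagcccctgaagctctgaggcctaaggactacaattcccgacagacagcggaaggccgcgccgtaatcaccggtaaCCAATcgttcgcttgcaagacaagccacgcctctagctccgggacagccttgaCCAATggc
Tbl1xr1: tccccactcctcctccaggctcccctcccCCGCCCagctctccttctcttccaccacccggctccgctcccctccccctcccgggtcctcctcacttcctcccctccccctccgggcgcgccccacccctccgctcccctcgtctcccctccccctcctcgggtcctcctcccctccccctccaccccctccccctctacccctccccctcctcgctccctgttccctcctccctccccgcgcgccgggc
A GC box was present upstream of *Gatad2a*, with 2 matches, and of *Tbl1xr1*, with 1, and a CCAAT box upstream of *Gatad2a* and *Brms1l*, with 2 matches each. The *Rcor2* stretch of 181 bases held neither. None of the 4 held an E-box. Over the whole 250 bases, 26 of the 32 members (81.2%) held a GC box, against 32.9% of the 27025 genes in the table. A CCAAT box was found in 16 members (50%) against 34.5%, and an E-box in 2 members (6.25%) against 6.05%. The 27025 genes were not limited to those expressed in these cells, as the members are. Whether the members differ from other expressed genes was therefore not tested. Genes that rose and genes that fell thus both included promoters with these letters, and a match is a description of the sequence only.

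Because FPKM is scaled to length, the balance between paralogous subunits can be read in each sample. In 15 pairs tested, the ratio of the paralogs did not overlap between HDAC1cKO-HDAC2HET and WT samples in 9, each with p = 0.0286 in a 2-sided exact permutation test (0.0477 with Benjamini-Hochberg adjustment over the 15 pairs). Ratios of other gene pairs were not computed, and 23.4% and 26.9% of all single genes separated the groups upward and downward, so whether paralog ratios separated more often than ratios of other genes was not tested. The *Chd3* to *Chd4* ratio changed most, by -1.70 on the log2 scale. The *Brms1* to *Brms1l* ratio rose from 4.95 ± 0.237 to 11.8 ± 0.759, and that of *Gatad2a* to *Gatad2b* from 1.76 ± 0.417 to 4.23 ± 1.11 (SD, n = 4). The *Tbl1x* to *Tbl1xr1* ratio rose from 4.30 ± 0.383 to 6.03 ± 0.565, although both genes fell, and the *Mier1* to *Mier2* ratio fell from 2.13 ± 0.109 to 1.40 ± 0.363. The *Mta1* to *Mta2* and *Mta3* to *Mta2* ratios rose by 0.33 and 0.36 on the log2 scale, and the *Arid4a* to *Arid4b* and *Mbd2* to *Mbd3* ratios fell by 0.25 and 0.26. In contrast, the ratios of *Rbbp4* to *Rbbp7*, *Sap30* to *Sap30l*, *Ing1* to *Ing2*, *Mier1* to *Mier3*, *Sin3a* to *Sin3b*, and *Rcor1* to *Rcor3* overlapped between the groups (exact p from 0.0571 to 1.0).

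**Figure D3:**
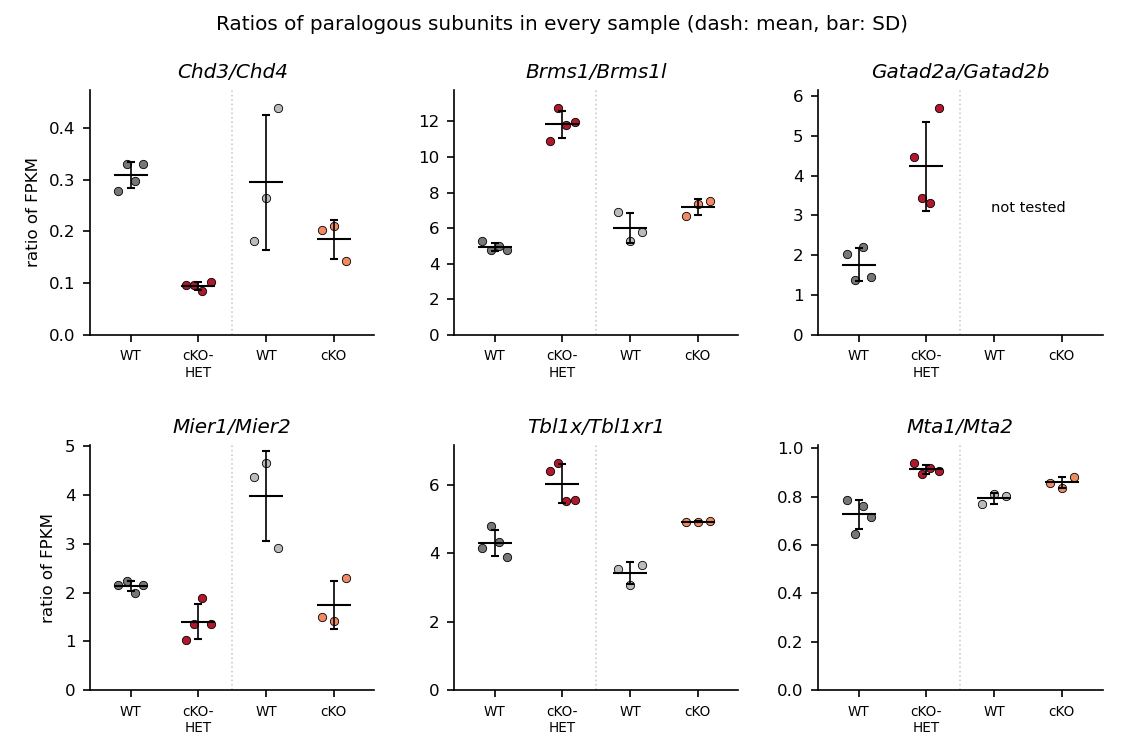
Ratio of FPKM of paralogous subunits in every sample for 6 of the 15 pairs, with the HDAC1cKO-HDAC2HET experiment left and the HDAC1cKO experiment right of the dotted line; dashes are means and bars are SD. The *Chd3* to *Chd4* ratio drops from between 0.278 and 0.330 to between 0.0842 and 0.102 in HDAC1cKO-HDAC2HET samples, and the *Tbl1x* to *Tbl1xr1* ratio is higher in the mutant samples of both experiments.

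The second experiment asked the same of cells that had lost HDAC1 but kept both *Hdac2* alleles. Of the 38 members 36 could be tested, and none was called in either direction at a limma adjusted p of at most 0.05. Of all 13912 genes tested, only 0.0144% were higher and 0.0575% lower. An unadjusted p under 0.05 was found for 8 of the 36 members (22.2%) and for 14.4% of all genes. The standard errors of the fold changes were larger here for most members, and 3 samples against 3 cannot give an exact permutation p below 0.1. With 1 fit over all 14 samples, which gives both experiments the same spread, *Suds3*, *Brms1*, *Gatad2a*, *Rcor2*, and *Mier2* were called higher and *Tbl1xr1* lower. The HDAC1cKO samples all lay above the WT samples for 8 members and below them for 2, against 9.98% and 12.3% of all genes. The 8 were *Sap130*, *Suds3*, *Brms1*, *Mta1*, *Mbd3*, *Gatad2a*, *Rcor2*, and *Mier2*, and the 2 were *Tbl1x* and *Tbl1xr1*. *Xist* was below 1 FPKM in 1 of the 3 WT samples and in all 3 HDAC1cKO samples, so the groups differed in their *Xist* status, and its part in these values was not tested. The CD4+ T cell markers summed to 1928 to 2431 FPKM in WT and 2032 to 2286 FPKM in HDAC1cKO samples, and the CD8 genes to 3.80 to 4.86 and 6.52 to 7.30 FPKM.

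*Rcor2* was again the gene with the largest difference. The 3 WT samples had 0.777, 0.474, and 0.842 FPKM and the 3 HDAC1cKO samples 4.93, 1.64, and 1.72 FPKM. All HDAC1cKO samples were above all WT samples, but replicate 1 stood well above the other two (log2 fold change 1.69, SE 0.47, adjusted p = 0.232). Without that replicate the log2 fold change was 1.19, and at a pseudocount of 1 it was 1.05 (adjusted p = 0.281). Bounds for single samples were wide. The Cufflinks upper bound was 7.31 FPKM for HDAC1cKO replicate 1 and 1.77 FPKM for WT replicate 3. Lower bounds, taken as equally far below the value but not below 0, were 2.55 and 0.0 FPKM, respectively.

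The genes that had changed most in the first experiment gave mixed values in the second. *Tbl1xr1* had 11.97, 12.3, and 10.5 FPKM in WT and 7.56, 6.00, and 6.75 FPKM in HDAC1cKO samples (log2 fold change -0.77, SE 0.12, adjusted p = 0.134), and its paralog *Tbl1x* had 42.5, 37.7, and 38.3 FPKM and 37.2, 29.5, and 33.3 FPKM. For both the HDAC1cKO samples were all lower. *Gatad2a* had 26.2, 24.1, and 23.2 FPKM in WT and 29.3, 28.3, and 31.4 FPKM in HDAC1cKO samples (0.27, SE 0.08), and *Brms1* had 29.2, 28.6, and 29.1 FPKM and 36.7, 37.1, and 34.4 FPKM (0.31, SE 0.06). *Sap130* had 16.5, 18.257, and 15.8 FPKM in WT and 20.3, 18.258, and 18.9 FPKM in HDAC1cKO samples, so its groups all but met. These genes lay in the direction of the first experiment without passing the test.

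Other members gave no such separation. *Chd3* had 22.6, 27.4, and 41.6 FPKM in WT and 24.1, 23.4, and 17.8 FPKM in HDAC1cKO samples, with groups that overlapped and a wide spread in WT (-0.45, SE 0.25, adjusted p = 0.452). *Chd4* had 124, 104, and 94.9 FPKM in WT and 118, 111, and 126 FPKM in HDAC1cKO samples. *Brms1l* had 4.21, 5.42, and 5.06 FPKM and 5.47, 5.03, and 4.55 FPKM, *Phf21a* had 12.2, 14.9, and 15.7 FPKM and 14.9, 12.7, and 12.7 FPKM, and *Sin3b* had 88.4, 85.7, and 85.4 FPKM and 86.8, 89.6, and 82.5 FPKM. The groups overlapped for all 5 of these genes. *Mier2* had 8.38, 8.93, and 9.17 FPKM in WT and 17.0, 16.4, and 11.7 FPKM in HDAC1cKO samples (0.74, SE 0.16, adjusted p = 0.187). This estimate was above that of the first experiment, but the 2 were not shown to differ (limma contrast, adjusted p = 0.255). Of the 13 paralog pairs tested here, 4 did not overlap, all with an exact p of 0.1 (0.325 adjusted over the 13 pairs), namely *Mta1* to *Mta2*, *Mier1* to *Mier2*, *Mier1* to *Mier3*, and *Tbl1x* to *Tbl1xr1*.

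Not tested in the second experiment were *Rbbp4*, whose assembled locus in HDAC1cKO replicate 3 reached into neighbouring genes and gave 254 FPKM against 156 to 176 FPKM in the other 5 samples, and *Gatad2b*, whose loci differed between samples. Levels of some members differed between the WT groups of the experiments, for example *Ing2* with 8.00 and 18.5 FPKM and *Hmg20b* with 23.7 and 37.2 FPKM. Restimulation and experiment cannot be told apart in such values. For *Ing2* the locus measured differed as well. It was listed by name in all 8 samples of the first experiment and matched by position in all 6 of the second. The part of this in the *Ing2* levels was not tested.

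The fold changes of the experiments, which share no sample, were then set against each other. Over the 36 members tested in both, the log2 fold changes correlated with Pearson's r = 0.885 and Spearman's rho = 0.711, as a description across genes in which *Rcor2* lies far from the rest. Over all 12355 genes tested in both, r was 0.358 and rho 0.518. Of the 23 members called in the first experiment and tested in the second, 17 (73.9%) had the same sign in both, against 82.7% of all 6986 such genes, and 20 (87%) had the smaller change in HDAC1cKO cells, against 89.9%. Over all 36 members, 27 (75%) had the same sign and 26 (72.2%) the smaller change in HDAC1cKO cells, against 71.9% and 70.1% of all genes. No test of these shares was made.

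The difference itself passed the test for 8 of 36 members at a limma adjusted p of at most 0.05, against 15.7% of the 12355 genes tested. The change was larger upward in HDAC1cKO-HDAC2HET cells for *Rcor2* (difference of log2 fold changes 1.61, SE 0.50, adjusted p = 0.0458), *Gatad2a* (0.61, SE 0.08, adjusted p = 0.000388), *Sin3b* (0.26, SE 0.06, adjusted p = 0.0116), and *Brms1* (0.21, SE 0.06, adjusted p = 0.0415). It was larger downward for *Chd3* (-0.77, SE 0.23, adjusted p = 0.0435), *Brms1l* (-0.76, SE 0.13, adjusted p = 0.00301), *Phf21a* (-0.50, SE 0.14, adjusted p = 0.0289), and *Tbl1x* (-0.33, SE 0.10, adjusted p = 0.0408). For *Tbl1xr1* the difference was -0.28 (SE 0.14, adjusted p = 0.217) and for *Mier2* -0.36 (SE 0.20, adjusted p = 0.255), so these were not shown to differ between the experiments. *Gatad2a* and *Brms1l* kept the call in all 27 alternatives. The other 6 lost it in 3 to 18 of them, among which *Rcor2* gave 1.04 (adjusted p = 0.0514) at a pseudocount of 1, and 2 members were called when the variances of the experiments were estimated separately. *Hdac2* dose, restimulation, and experiment cannot be told apart in these differences.

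**Figure D4:**
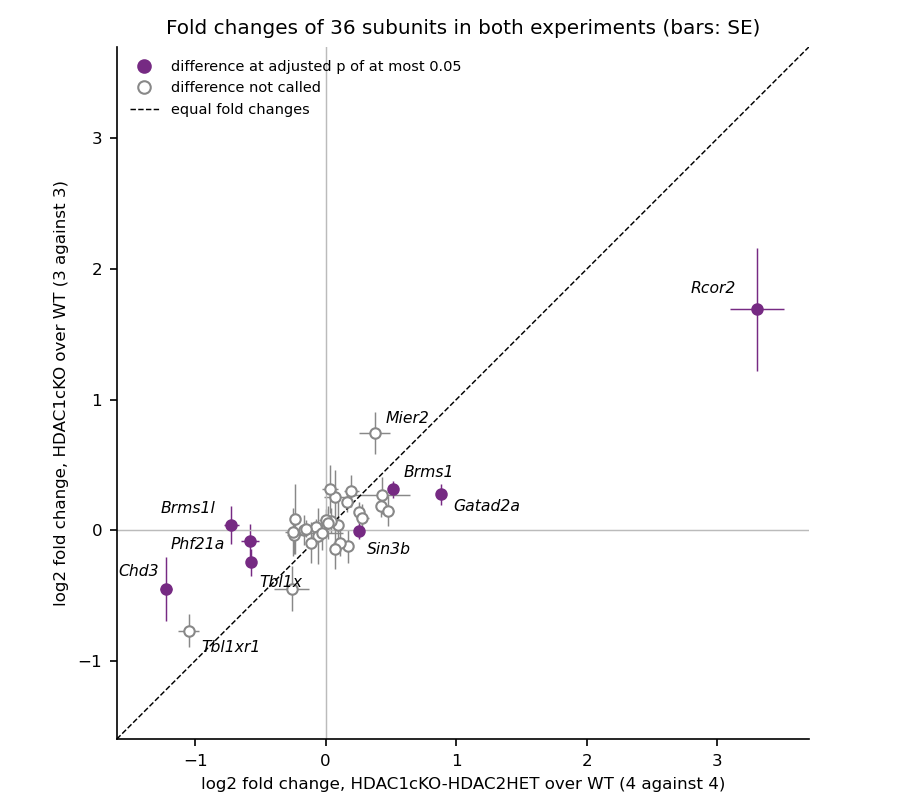
Log2 fold change of 36 subunit genes in HDAC1cKO-HDAC2HET over WT cells (horizontal axis) and HDAC1cKO over WT cells (vertical axis), with standard errors; filled points mark the 8 members whose fold changes differed at an adjusted p of at most 0.05, and the dashed line marks equal changes. *Rcor2* lies at 3.30 and 1.69, *Brms1l* at -0.72 and 0.04, and *Tbl1xr1*, close to the line, at -1.05 and -0.77.

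Of 26 further known partners of these complexes, 20 could be tested, and 7 were higher and 9 lower in HDAC1cKO-HDAC2HET cells, against 24.2% and 27.6% of all genes. *Gfi1*, a repressor that recruits CoREST, went from 22.0 ± 1.86 to 73.9 ± 5.26 FPKM (SD, n = 4; limma adjusted p = 2.22e-06), and the NCoR-associated *Coro2a* from 20.6 ± 2.72 to 45.9 ± 5.10 FPKM. In HDAC1cKO cells none of the 20 was called, against 0.0144% of all genes higher and 0.0575% lower.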

How the data were processed

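Each sample had a table of FPKM per locus, which the authors made with TopHat and Cufflinks from 50-base reads per the study's methods. The submitters' processing notes also list STAR 2.5.2b, Subread 1.5.1, R 3.4, edgeR, and FastQC, while the deposited columns are Cufflinks output on mm10. Whether counting used strand is not given in the sources used here. Loci without a gene name were matched by position to GENCODE vM21 (shared span of at least 0.8 of the joint span). Of the 15111 genes tested in the first experiment, 4271 were named in every sample and 4713 were matched in every sample. Of the 13912 in the second, these were 3025 and 7759. The rest mixed both, for example *Brms1*, named in 2 and matched in 6 samples of the first experiment. The part of this in levels and ratios was not tested.

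Of the samples, 4 WT and 4 HDAC1cKO-HDAC2HET formed the first experiment and 3 WT and 3 HDAC1cKO the second, as their labels give them. Genes with a mean of at least 0.1 FPKM were tested on log2(FPKM + 0.1) with limma 3.58.1 (R 4.3.3) and an intensity trend, each experiment alone, with Benjamini-Hochberg adjustment over all genes. A fold change on this scale understates that of low genes. The difference between the experiments was a contrast over all 14 samples. Single values and ratios were tested by 2-sided exact permutation (70 arrangements for 4 against 4 and 20 for 3 against 3). Scripts were tested on simulated data and used pandas 2.3.3, numpy 2.4.6, scipy 1.17.1, and matplotlib 3.10.9.

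Depth was estimated from Cufflinks bounds, with 75.6 to 85.6% of low genes giving whole fragments within 0.05. Every member was named. Values in every sample are given for members with an adjusted p of at most 0.05 and an absolute log2 fold change of at least 0.4 in HDAC1cKO-HDAC2HET cells, an adjusted p of at most 0.05 in HDAC1cKO cells, or one for the difference. Sample values of *Mier1*, *Mier2*, and *Gatad2b* were added after their values were seen. The members, gene lists, and tests were chosen with earlier results of these data known. Alternatives tried were other pseudocounts, filters, normalizations, variance models, covariates, matching rules, and leaving out each sample.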

Additional observations from a re-analysis of the deposited data

Results flagged for a closer look

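In groups of 4 samples, 1 sample stood apart from the other 3 in 4 of 76 combinations of member and group, and chance gives about 1 in 20. *Mta1* was at 66.5 FPKM in WT replicate 2 and at 72.3 to 73.1 FPKM in the other WT samples. *Chd4* was at 178 FPKM in HDAC1cKO-HDAC2HET replicate 3, against 159 to 161 FPKM. *Kdm1a* in the same sample was at 55.4 FPKM, against 46.6 to 47.7 FPKM, and *Rcor1* was at 31.7 FPKM in HDAC1cKO-HDAC2HET replicate 2, against 20.9 to 22.6 FPKM.

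The fold changes of 8 members differed between the experiments in the limma contrast, as HDAC1cKO-HDAC2HET minus HDAC1cKO on the log2 scale. They were *Rcor2* (1.61), *Gatad2a* (0.607), *Sin3b* (0.258), *Brms1* (0.206), *Tbl1x* (-0.326), *Phf21a* (-0.502), *Brms1l* (-0.760), and *Chd3* (-0.770). The part of *Hdac2* dose, restimulation, and experiment in these differences was not tested.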

How the results depend on the processing

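Of the 24 members called in HDAC1cKO-HDAC2HET cells, 16 kept direction and call under all 20 alternatives other than the *Xist* covariate. The others were *Ing1*, *Hmg20b*, and *Dnttip1*, kept in 19, *Mbd3* in 17, *Mier2* in 16, *Rbbp4* in 15 of 19, *Sin3a* in 11, and *Arid4a* in 10. With the *Xist* level as a covariate, 0 members were called higher and 0 lower, *Arid4a* gave 0.22 (adjusted p = 0.672) and *Mbd3* -0.37 (adjusted p = 0.314), both reversed, and 4 members differed between the experiments. The other 22 called members kept their direction, but not all kept their size. *Rcor2* was at 3.69 (adjusted p = 0.19) and *Chd3* at -1.46 (adjusted p = 0.0663), both larger than without the covariate. *Phf21a* was at -0.03 (adjusted p = 0.97) and *Mier3* at -0.08 (adjusted p = 0.922), both smaller. *Xist* did not overlap between the groups, so this covariate and genotype cannot be told apart. With both experiments in 1 fit, 7 members were called lower in HDAC1cKO-HDAC2HET cells, and 5 higher and 1 lower in HDAC1cKO cells. The difference between the experiments was called for 4 members without the intensity trend, for 3 with the replicate number as a block, and for 2 with separate variances. Leaving out 1 sample at a time gave 11 to 13 members higher and 9 to 12 lower in HDAC1cKO-HDAC2HET cells, 0 and 0 in HDAC1cKO cells, and 3 to 7 for the difference, with 3 without WT replicate 2 and 7 without WT replicate 3 of the HDAC1cKO experiment. The causes of these changes were not tested.

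Equal replicate numbers did not pair the samples, since deviations of same-numbered samples correlated at -0.02 to 0.05. With the block, 12 members were called higher and 10 lower in HDAC1cKO-HDAC2HET cells. Limits are the small groups of the HDAC1cKO experiment, in which exact tests cannot fall below 0.1, the low level of *Rcor2*, and loci that overlap other genes, which holds for *Sin3a*, *Brms1*, *Arid4b*, *Rbbp7*, *Kdm1a*, *Mier1*, *Ncor1*, *Rcor3*, and *Phf21a*.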
